A study of Mus musculus with 2 samples.

Results

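The genes of the Mediator complex, of the SMC complexes cohesin and condensin, and of the insulator protein Ctcf were examined in mouse embryonic stem (ES) cells. They were chosen by name, 53 genes of the 28592 in the deposited table, and all 53 were matched by symbol. The cells were of the E14TG2a line, a male mouse ES line deficient in Hprt, held in the naive ground state in 2i/LIF medium. This medium combines inhibitors of MEK and GSK3 with leukaemia inhibitory factor. The series has 1 group of 2 replicates and no other genotype, treatment or time, so levels were compared between genes within this state. Total RNA was depleted of ribosomal RNA before strand-specific sequencing.

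Mediator is a large complex that carries signals from transcription factors at enhancers to RNA polymerase II at promoters. Its head and middle contact the polymerase, its tail receives transcription factors, Med14 runs through it as a backbone, and a kinase module built on Cdk8 or Cdk19 joins and leaves. Cohesin is a ring that holds sister chromatids together and extrudes chromatin loops, which Ctcf bound to DNA can halt. Condensin, a related ring, folds chromosomes for mitosis and exists in a form I and a form II that share Smc2 and Smc4. In mouse ES cells Mediator, cohesin and the loading factor Nipbl are known to occupy the enhancers and promoters of active pluripotency genes together.

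Levels are given as FPKM, the fragments of a gene per kilobase of its transcript and relative to all mapped fragments. This corrects for transcript length, so genes can be compared approximately. The annotation and the use of strand are not given, so differences between genes can also reflect how reads were assigned. Values are those of replicates 1 and 2 in that order, or the mean ± SD over the 2 replicates (n = 2). For a group of genes, the value is the median over genes of their mean FPKM. Its ± is the SD of the 2 replicate medians, which can both lie on the same side of the value. Nothing in the labels ties the replicates to separate cultures, and their spread may therefore be technical. With 2 values against 2 an exact permutation test cannot give p below 0.333, so no test was run on the difference between genes. Genes were instead called separate in level where their replicate ranges did not overlap. For 2 genes of equal level this happens with the same probability of 0.333, so separate is a description and not a test. Detected means an FPKM of 1 or more in each of the replicates.

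The sum of FPKM was 946498 for replicate 1, with 928174 for replicate 2, and read numbers are not known. Of 8 ES markers 8 were detected, from Klf4 at 12.5 ± 1.57 to Dppa5a at 7048 ± 107. None of 10 fibroblast markers was detected, with a summed FPKM of 0.583 in replicate 1 and 3.60 in replicate 2, from Lum, at 0.0139 and 0, to Col1a2, at 0.0101 and 0.917. None of 6 primitive endoderm markers was detected, with sums of 0.307 and 0.421. Of 6 trophectoderm markers 1 was detected, Cdx2 at 1.29 ± 0.240, with sums of 2.12 and 2.61.

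All 53 members were detected, against 39.4% of all genes in the table. At 10 or more in both replicates there were 42 members, against 21.8% of all genes, and at 50 or more there were 15, against 6.99%. The median of the members was 25.4 (23.9 and 26.9 in the single replicates), and 40 of the 53 lay above the median of the 11253 detected genes, which was 12.7 ± 0.0831. The highest members were Pds5a, Med8, Smc4, Esco2 and Wapl, and the lowest were Med15, Cdk19, Med16, Med14 and Med26. When the 53 were put in order, the replicate ranges of 29 of the 52 pairs of neighbours overlapped, so the order is coarse and not exact.

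The medians of the complexes lay in the order condensin, cohesin, Mediator. The 8 condensin genes had a median of 55.7 ± 1.23, the 12 cohesin genes one of 42.5 ± 0.290, and the 32 Mediator genes one of 17.5 ± 0.0926, and Ctcf stood at 37.0 ± 0.551. All 8 condensin genes, 9 of 12 cohesin genes and 22 of 32 Mediator genes lay above the median of detected genes. Genes within a complex were far from equal. The SD over members of log2(FPKM + 1) was 1.29 in Mediator, 1.31 in cohesin and 1.05 in condensin, against 2.01 over all detected genes.

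Promoter sequences are shown for a pair of paralogs that lay far apart in level, for Ctcf, and for the lowest member. The paralogs were Pds5a, at chr5:65698187-65698486 on the minus strand, and Pds5b, at chr5:150673577-150673876 on the plus strand. Ctcf was at chr8:105636288-105636587 on the plus strand, and Med15 at chr16:17722851-17723150 on the minus strand. Each is the stretch from 250 bases before to 50 after a transcript start that RefSeq lists for the gene on GRCm38.p6, which need not be the outermost start, read 5′ to 3′ on the strand of the gene. Capitals mark CpG dinucleotides, the sites of DNA methylation in mammals.
Pds5a: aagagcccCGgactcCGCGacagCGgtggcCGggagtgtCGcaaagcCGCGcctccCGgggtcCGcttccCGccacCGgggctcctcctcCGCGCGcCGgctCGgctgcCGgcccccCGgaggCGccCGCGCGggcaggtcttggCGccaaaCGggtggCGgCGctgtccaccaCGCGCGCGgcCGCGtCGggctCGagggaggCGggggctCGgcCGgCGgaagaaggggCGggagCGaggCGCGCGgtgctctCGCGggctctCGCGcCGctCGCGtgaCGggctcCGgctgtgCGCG
Pds5b: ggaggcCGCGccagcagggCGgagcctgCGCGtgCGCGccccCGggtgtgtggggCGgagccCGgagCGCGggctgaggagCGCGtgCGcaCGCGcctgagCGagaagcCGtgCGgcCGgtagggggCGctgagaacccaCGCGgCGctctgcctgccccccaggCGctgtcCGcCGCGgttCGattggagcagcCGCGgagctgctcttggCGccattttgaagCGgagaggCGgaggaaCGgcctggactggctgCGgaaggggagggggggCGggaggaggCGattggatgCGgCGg
Ctcf: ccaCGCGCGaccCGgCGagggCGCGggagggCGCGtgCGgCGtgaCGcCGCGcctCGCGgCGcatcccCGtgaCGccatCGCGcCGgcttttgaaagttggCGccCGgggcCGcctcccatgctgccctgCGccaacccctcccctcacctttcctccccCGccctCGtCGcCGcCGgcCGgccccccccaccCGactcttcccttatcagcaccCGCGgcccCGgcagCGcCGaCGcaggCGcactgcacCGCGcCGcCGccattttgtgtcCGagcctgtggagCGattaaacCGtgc
Med15: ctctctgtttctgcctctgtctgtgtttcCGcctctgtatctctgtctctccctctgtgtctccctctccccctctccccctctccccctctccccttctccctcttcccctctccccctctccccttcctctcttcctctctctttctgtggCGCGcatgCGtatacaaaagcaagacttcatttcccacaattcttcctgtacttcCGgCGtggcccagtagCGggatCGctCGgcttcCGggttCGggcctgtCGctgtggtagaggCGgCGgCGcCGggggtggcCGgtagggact

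These windows held 55 CpG dinucleotides at Pds5a, 41 at Pds5b, 47 at Ctcf and 17 at Med15. A further start of Med15 lies upstream of the one shown, and its overlapping window held 11. Pds5a and Pds5b had CpG-rich windows at each and were the widest apart in RNA of the 11 pairs of members compared. RefSeq promoters were matched for 42 of the 53 members, 48 windows in all because some genes have more than 1 start, and some of these overlap. The median over the 48 windows was 23 CpG, against 21 in the 10990 windows of detected genes and 7 in all 32851 windows. They ranged from 1, at a start of the cohesin loader gene Mau2 that lies inside the gene, to 61 at Med13l. No methylation or binding was measured, so the sequences are context only.

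Short motifs were then searched in the same windows on either strand, and a gene was counted once if any of its windows held the motif. The E2F-type motif TTCCCGC was found for 9 of 42 members (21.4%), against 10.2% of 8628 detected genes and 5.29% of all 27025 genes with a window. These 9 were Med6, Med9, Med14, Med17, Smc1a, Stag1, Pds5a, Ncapg and Ncapg2. The GC-box GGGCGG of Sp1 was found for 32 (76.2%, against 70.1% and 38.2%), and the Nrf1-type motif CATGCGC for 5 (11.9%, against 8.89% and 4.41%).

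The ETS-type motif CCGGAAG was found for 10 members (23.8%, against 22.6% of detected and 9.93% of all genes) and the CCAAT box for 18 (42.9%, against 44.6% and 41.1%). The Yy1-type motif AAGATGG was found for 4 (9.52%, against 8.97% and 7.28%) and the TATAAA box for 4 (9.52%, against 7.82% and 15.7%). The share for the E2F-type motif lay 11.2 percentage points from that of detected genes, and the shares of the other 6 motifs lay at most 6.10 points from it. A match is a description of letters and not a bound site, and no test was made.

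In Mediator the head module, which contacts RNA polymerase II, was the highest. Its 7 genes had a median of 29.0 ± 0.136 and all lay above the median of detected genes. Med8 stood at 109 and 97.2, Med6 at 56.7 and 53.6, and Med18 at 37.7 and 36.8. These 3 were separate from each other in their replicate ranges. Med17, which holds the head together, stood at 28.6 and 29.3, Med11 at 29.5 and 27.4, and Med20, a partner of Med18, at 28.2 and 28.3. The range of Med11 overlapped those of Med17 and Med20. Med22 was lowest at 17.0 and 16.3, which put the head within a range of 6.17-fold.

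The middle module, which links head and tail, covered a range of 14.5-fold around a median of 18.1 ± 0.818. Med21 stood at 73.7 and 75.8 and Med4 at 51.5 and 53.9, well above the rest. Next came Med10 at 23.9 and 26.9, Med19 at 22.7 and 23.2, and Med31 at 17.5 and 18.7. Med21 and Med7 form the hinge of the module in yeast, but Med7 stood at only 16.0 and 14.4, and the ranges of Med21 and Med7 did not overlap.

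Med1, the subunit through which nuclear receptors bind Mediator, stood at 15.7 and 14.04, and its range overlapped that of Med7. Med9 had 9.98 and 8.78. Med26, which helps to bring elongation factors to the polymerase, was lowest at 4.93 and 5.39. Med14, the backbone that head, middle and tail are built on, stood at 5.08 and 4.91, below all genes of the head and of the middle other than Med26, whose range it overlapped.

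The tail module, where many transcription factors dock, was the most uneven part of Mediator in the assignment used here. Its range from Med15 to Med28 was 53.5-fold, around a median of 17.1 ± 0.263. Assignments differ, and with Med27 to Med30 placed in the head the highest tail gene would be Med24 at 22.0. The size of the range in the tail therefore depends on the assignment and on Med15. Med28 stood at 82.3 and 77.3 and Med30 at 48.3 and 45.6. Med24, which sits in the tail next to Med23 and Med16, stood at 22.6 and 21.5. Med27, at 18.8 and 16.8, and Med29, at 17.2 and 17.0, overlapped, and Med23, a target of the ERK-responsive factor Elk1, had 13.8 and 15.8. Med25, which is bound by activators including those of the ETS family, had 13.1 and 10.7, the widest log2 difference between the replicates of any member, at -0.27.

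Med16 stood at 5.09 and 4.65. Med15, a subunit known as a docking site for activators such as SREBP and Smad proteins, was the lowest of all 53 members at 1.48 and 1.50. It lay at percentile 4.60 of the detected genes, with hardly any spread between the replicates.

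The kinase module had a median of 6.86 ± 0.00400, against 20.1 ± 0.426 for the 26 other Mediator subunits. This median lies between Med12 and Med13, which moved in opposite directions between the replicates. Its small SD is therefore not a small spread of each gene. The cyclin of the module, Ccnc, was the highest of the kinase module genes at 36.9 and 40.0. The scaffold subunits of the module were low: Med12, which activates the kinase, had 6.13 and 5.84, and Med13l had 5.48 and 5.10. Med13, the paralog of Med13l that tethers the module to the core complex, had 7.59 and 7.89. The neighbours in the order of the module (Ccnc, Cdk8, Med13, Med12, Med13l, Cdk19) were all separate in their replicate ranges. A short list leaves wide gaps between neighbours, and no share over all detected genes was computed, so this is not read as a trait of the module.

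The kinase exists in either of a pair of paralogous forms. Cdk19 stood at 4.70 and 4.09 and Cdk8 at 16.6 and 17.5, so Cdk19 made up 20.5% ± 2.23 of their summed FPKM. Med12l, the paralog of Med12 and outside the listed members, was not detected, with 0.434 and 0.448, against 6.13 and 5.84 for Med12.

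**Figure D1:**
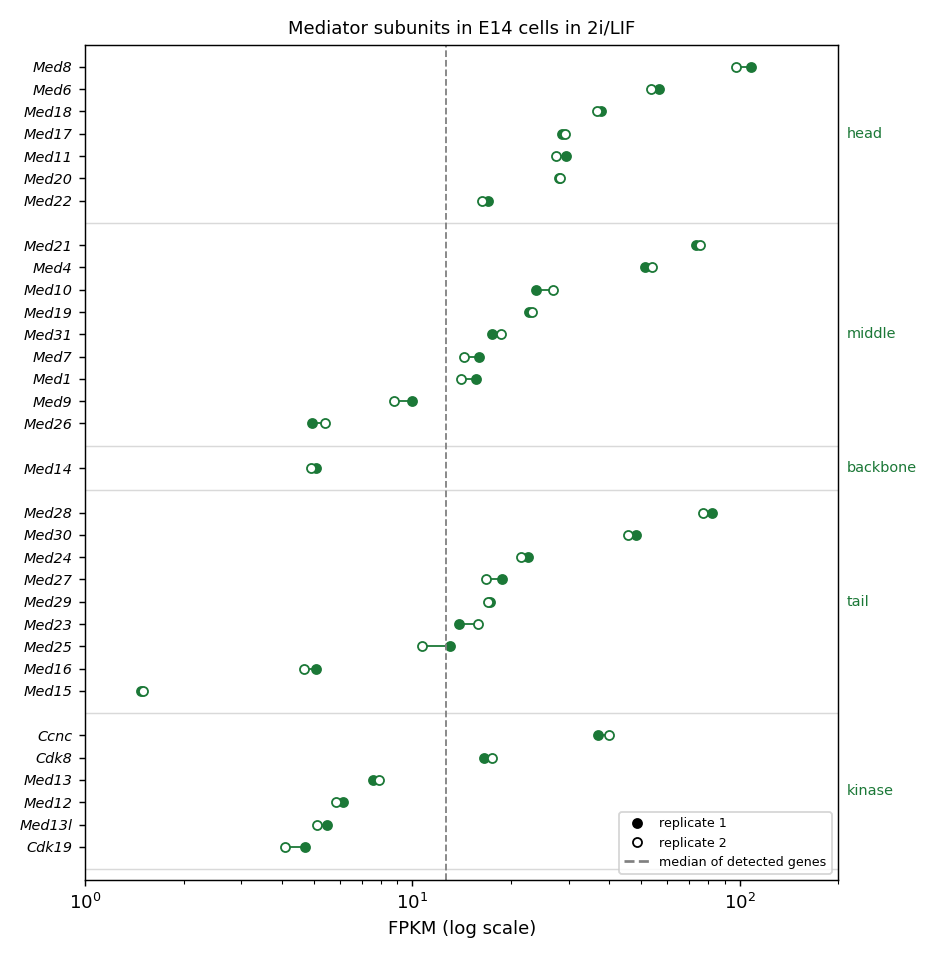
FPKM of the 32 Mediator genes on a log axis, grouped by module, with replicate 1 as filled and replicate 2 as open points and the median of detected genes (12.7) as a dashed line. All 7 head genes lie right of the line, 4 of 6 kinase module genes lie left of it, and Med15 is furthest left at 1.48 and 1.50.

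The cohesin ring was the most even group of more than 2 genes, with a range of 2.02-fold around a median of 43.7 ± 0.0945. The subunit Smc3 had 43.7 and 43.6 and its partner in the ring, Smc1a, had 69.8 and 71.0. Rad21, the kleisin that closes the ring and is cut by separase at anaphase, had 34.5 and 35.3. Each gene of the ring was separate in its replicate range from its neighbours. This list is short too, and no share over all detected genes was computed.

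The ring carries a Stag subunit, Stag1 or Stag2. Stag1 stood at 52.9 and 50.4 and Stag2 at 40.8 and 41.8, so Stag1 was 1.25 ± 0.0625 times as high as Stag2. Stag3, which is known as the Stag subunit of meiotic cohesin, was detected too, at 24.4 and 20.9. It made up 19.6% ± 1.53 of the summed FPKM of the Stag genes, against 35.8% ± 1.67 for Stag2 and 44.7% ± 0.142 for Stag1.

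Stag3 was not alone among the germline forms. Rec8, the meiotic kleisin, had 11.1 and 9.47, or 22.8% ± 2.29 of the kleisin FPKM, against 77.2% ± 2.26 for Rad21, while Rad21l, a further meiotic kleisin, was listed at 0 in replicate 1 and stood at 0.0179 in replicate 2. Smc1b, the meiotic form of Smc1a, had 1.40 and 1.50, or 2.02% ± 0.0782 of their sum. Of the 5 germline paralogs examined, these 4 and Ctcfl, 3 were detected. In bulk RNA, expression in few cells and a low level per cell cannot be told apart.

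The regulators of the ring were split. Mau2, a subunit of the cohesin loader, stood at 15.0 and 14.6. It was 2.17 ± 0.0556 times as high as its partner Nipbl, which loads cohesin and drives loop extrusion and stood at 6.82 and 6.86, the lowest of the 12 cohesin genes. Wapl, which releases cohesin from chromatin, stood at 89.2 and 92.0.

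Pds5a and Pds5b help Wapl in release and Esco enzymes in protecting the ring. Pds5b had 9.63 and 10.01 and Pds5a had 101 and 108, so Pds5a was 10.7 ± 0.208 times as high as Pds5b. Esco1 and Esco2 acetylate Smc3, and Esco2 does so during DNA replication. Esco1 had 12.7 and 12.5 and Esco2 had 94.0 and 101, a level 7.72 ± 0.428 times that of Esco1. All 11 neighbours in the order of the 12 cohesin genes were separate in their ranges, against 17 of 31 in Mediator. A shorter list leaves wider gaps between neighbours, and no share over all detected genes was computed. The order is therefore not taken as resolved.

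Other genes of the cohesin cycle were all detected, 6 of 6, with a median of 29.6. They ran from Hdac8, which removes the acetyl group from Smc3, at 3.41 ± 0.110, to the securin gene Pttg1 at 60.8 ± 5.69.

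Ctcf, the zinc finger protein that halts loop extrusion, stood at 36.6 and 37.4, at percentile 75.9 of detected genes. Its paralog Ctcfl, known for its role in the testis, had 0.09625 and 0.0437 and was not detected. Ctcf lay between Rad21 and Stag2 in level, and its range was separate from that of each of them.

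Condensin was the highest of the complexes in median. The shared subunits were close, with Smc4 at 97.4 and 106 and Smc2 at 81.3 and 83.8.

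Condensin II is nuclear throughout the cell cycle, and condensin I reaches the chromosomes after the nuclear envelope breaks down. The subunits with HEAT repeats are Ncapd3 and Ncapg2 in condensin II and Ncapd2 and Ncapg in condensin I. Ncapd3 had 18.0 and 18.3 and Ncapd2 had 56.3 and 52.9, a difference of -1.54 ± 0.08 in log2(FPKM + 1). Ncapg2 had 14.3 and 15.4 and Ncapg had 56.9 and 56.8, a difference of -1.87 ± 0.07. In both pairs the condensin II gene was the lower.

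The kleisins, which close the ring, went the other way. Ncaph2 of condensin II had 93.3 and 86.8 and Ncaph of condensin I had 24.9 and 29.9, so Ncaph2 was 3.32 ± 0.594 times as high, with a log2 difference of 1.68 ± 0.25. Ncaph differed more between the replicates than other condensin genes, by 0.25 on the log2(FPKM + 1) scale. Even with that spread the ranges of the kleisins were far apart.

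**Figure D2:**
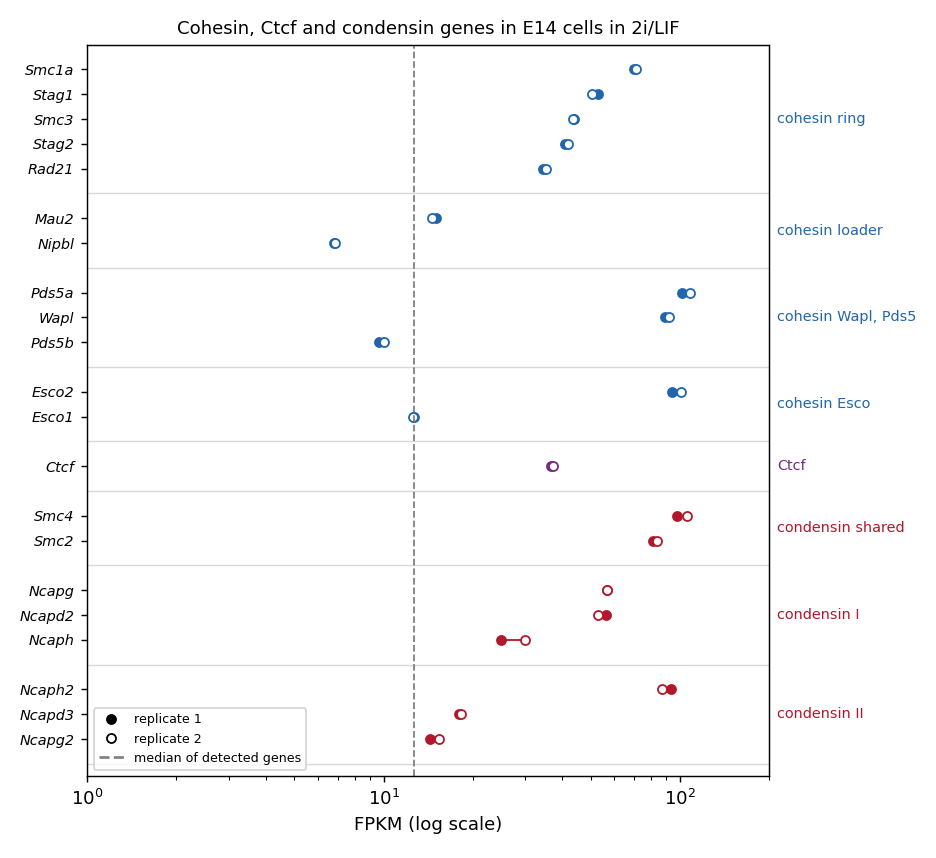
FPKM of the 12 cohesin genes, Ctcf and the 8 condensin genes on a log axis, by role, with replicate 1 as filled and replicate 2 as open points and the median of detected genes (12.7) as a dashed line. Nipbl, Pds5b and Esco1 lie left of the line, and Ncaph2 lies far right of the other condensin II genes.

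Over the 11 pairs of members compared, 7 differed by more than 2-fold and 4 by less, taken on the log2(FPKM + 1) scale. The share among pairs of unrelated genes was not computed, so this count is not read as a trait of paralogs or partners. For scale, the SD of log2(FPKM + 1) was 1.34 over all members and 2.01 over all detected genes. Mau2 over Nipbl passed narrowly, and without replicate 1, where that difference was 0.99, the number beyond 2-fold was 6. The pairs within 2-fold were Stag1 over Stag2 (0.32 ± 0.07), Smc4 over Smc2 (0.30 ± 0.05), Med13l over Med13 (-0.48 ± 0.10) and Smc3 over Smc1a (-0.68 ± 0.02). The wider ones were Pds5b over Pds5a (-3.29 ± 0.03), Esco1 over Esco2 (-2.85 ± 0.08), Cdk19 over Cdk8 (-1.74 ± 0.17), Mau2 over Nipbl (1.01 ± 0.03) and the condensin pairs above. In each of the 11 pairs the difference had the same sign in both replicates.

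**Figure D3:**
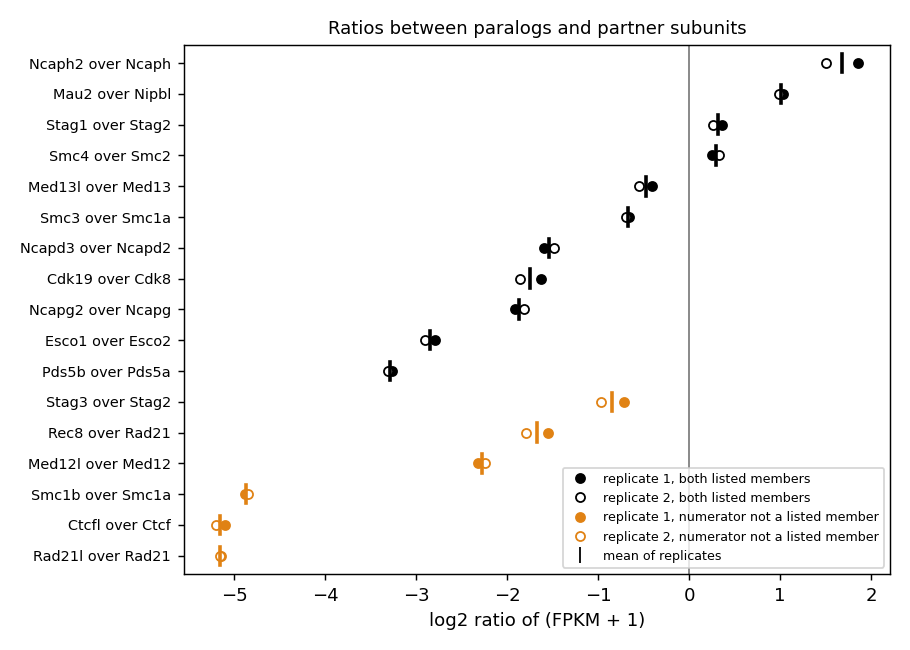
Log2 ratio of (FPKM + 1) between paralogs or partner subunits in replicate 1 (filled) and replicate 2 (open), with the mean as a bar. Black marks pairs in which both genes are members, and orange marks pairs whose numerator is outside the members. Ratios run from 1.68 for Ncaph2 over Ncaph to -5.15 for Rad21l over Rad21 and Ctcfl over Ctcf.

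The related Smc5/6 complex acts in DNA repair, and all 6 of its genes measured were detected, with a median of 38.1, from Smc5 at 19.8 ± 1.62 to Nsmce4a at 160 ± 0.0636, and Eid3 had no value under that symbol. Of a list of genes for other chromosome proteins, not all of them specific to mitosis, 6 of 6 were detected, with a median of 22.3. They ran from Mcph1, which restrains condensin II, at 11.7 ± 0.913, to the topoisomerase gene Top2a at 379 ± 5.09.

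The replicates were close for the members. Of the 53, 27 (50.9%) were higher in replicate 2, against 48.8% of all detected genes. The median log2 ratio of replicate 2 to replicate 1 was 0.01 with an SD of 0.10, against -0.0035 and 0.16 over all detected genes. A difference beyond 0.2 in either direction was seen for 2 members, Med25 and Ncaph, which is 3.77% of them, against 14.6% of detected genes. These groups were not matched for level, and the members lay higher. The median absolute difference was 0.069 for members and 0.080 for detected genes. The fibroblast markers, none of them detected, moved between the replicates, with 8 of 10 higher in replicate 2. Their part in the levels of the members was not tested. The spread was smaller among cohesin genes (SD 0.05) than among Mediator genes (0.11) and condensin genes (0.12). These complexes differ in level and in number of genes, and the condensin SD includes Ncaph at 0.25. The order of these spreads is therefore not read as a trait of the complexes.

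**Figure D4:**
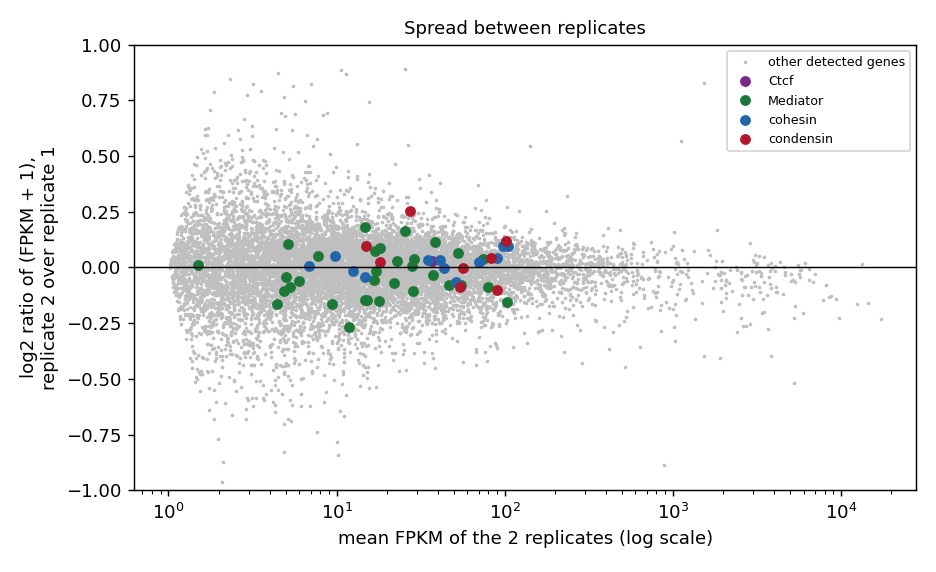
Log2 ratio of (FPKM + 1) of replicate 2 to replicate 1 (vertical axis) against mean FPKM on a log axis, for detected genes (grey) and the 53 members (coloured by complex). The axis is cut at -1 and 1, which leaves out 11 detected genes. The members lie between -0.27 (Med25) and 0.25 (Ncaph).

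Members lay on 19 chromosomes, 4 of them on the X chromosome, which is present once in male cells. The X-linked Smc1a and Stag2 were among the higher members, and the X-linked Med12 and Med14 among the lower ones. Levels were then set against the gene span, which includes introns and was not part of the choice of members. Spearman's rho between span and level was -0.24 across all 53 members, against -0.18 across 10281 detected protein-coding genes. By complex it was -0.64 across the 8 condensin genes, -0.55 across the 32 Mediator genes and -0.17 across the 12 cohesin genes.

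The median level was 28.3 for the 20 members with a span under 20 kb, 34.9 for the 19 with 20 to 60 kb and 13.4 for the 14 with more than 60 kb. Stag1, Wapl and Pds5a were long genes with high levels, while Nipbl and Pds5b of the same complex were long genes with low levels. These values are across genes, which are not replicates and share the same libraries.

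**Figure D5:**
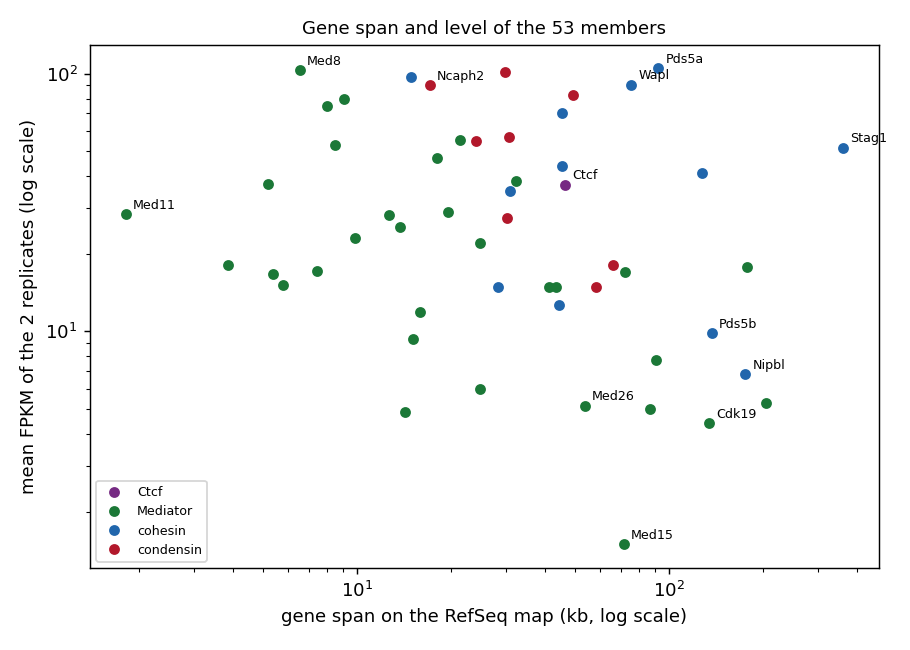
Mean FPKM of the 53 members against their gene span on the RefSeq map in kb, on log axes, coloured by complex. The long Mediator genes Cdk19 and Med15 and the long cohesin genes Nipbl and Pds5b lie low. Med27 and Cdk8 are also long and lie at 17.8 and 17.0, while Pds5a, Wapl and Stag1 are long and high.

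Overlap with other genes may affect some of these levels, and its effect was not tested. On the RefSeq map 32 members overlapped at least 1 other gene, 8 of them a gene whose mean FPKM was known to be at least 1. The share of all genes with such an overlap was not computed, so these counts are not read as a trait of the members. Overlaps were taken between whole spans, introns included, on either strand. Use of strand in the quantification is not given in the sources used here. Of the 49 overlaps the partner had an FPKM value under its RefSeq symbol in 14, and the others were not examined for level. Among those 14 the partner was higher than the member for Med19, which stood at 23.0 and shares 427 bases with Tmx2 at 85.2. Ncaph2 shares 1221 bases with Sco2 (23.8), Med20 lies wholly within the span of Gm20517 (3.95), and Med13 overlaps the lncRNA Brip1os (5.20) over 37411 bases. How reads were divided in these cases is not known.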

How the data were processed

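Total RNA of 2 replicates of E14TG2a cells was sequenced after depletion of ribosomal RNA. The authors deposited FPKM per gene. The builds mm10 and GRCm38 and the tools Cufflinks, TopHat2 and CASAVA are named in the submitters' processing notes. No version, annotation, filter or use of strand is given in the sources used here. Each column was assigned to its replicate because its name equals the description of that sample.

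By its stable identifier, a symbol was found for 28256 of the 28592 genes. Spans and promoters came from RefSeq on GRCm38.p6. Levels were compared as log2(FPKM + 1), which understates differences of low genes, or as FPKM ratios. An FPKM of 0 can be a failed estimate and is given as listed at 0. Medians, SDs and Spearman's rho were computed with Python 3.11.15, pandas 2.3.3 and scipy 1.17.1, and the functions were tested on simulated data. All members may be named, and of the other lists the highest, the lowest and the genes of the fixed pairs. A further list of related genes is not reported here. The members and lists were chosen with earlier results of these data known. The promoter, motif, span and overlap descriptions were added after the data were seen. Alternatives were other pseudocounts, other detection limits, rescaling to TPM, another module assignment and leaving out each replicate.

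Depth in reads is not known. Of 2288 genes under a mean FPKM of 0.1 and above 0 in both replicates, 66.8% had a replicate ratio near a quotient of whole numbers of at most 8. Near means no more than 0.01 apart in log2. Libraries that differ by a simple whole-number ratio would give such quotients too, and no share by chance was computed. Whether the FPKM that 1 read adds was similar in both libraries is therefore not shown. No interval in reads was computed, and no gene count model was used.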

Additional observations from a re-analysis of the deposited data

How the results depend on the processing

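Under the alternatives, 38 of 153 recomputed values were labelled as moved and none changed sign. The limit was the SD between replicates, or for counts a fold limit. Some outcomes were fixed in advance, so this number does not measure stability. With 2 replicates, leaving 1 out cannot move a mean log2 ratio beyond that SD. Counts, medians and spreads cannot change sign. Use of detected members only repeats the main medians, because all 53 were detected. The number of members detected was 53 at a limit of 0.5, after rescaling to TPM and in each replicate alone, and 48 at a limit of 5. Rescaling to TPM raised all medians by a common factor within each replicate, to 18.6 in Mediator, 45.3 in cohesin and 59.5 in condensin. By module these were 30.9 in the head, 19.3 in the middle, 18.2 in the tail, 7.32 in the kinase module, 46.6 in the cohesin ring, 96.7 for Wapl and Pds5, 58.2 in condensin I and 19.4 in condensin II. Without each replicate in turn the Mediator median was 17.2 to 17.4 and the head median 29.3 to 29.5. Subunit assignments differ between accounts, and placing Med19 and Med27 to Med30 in the head gave medians of 28.7 in the head, 16.7 in the middle and 11.9 in the tail. With pseudocounts of 0.1 and 0.01 the spread over members was 1.40 and 1.41 in Mediator and 1.36 and 1.37 in cohesin. The log2 ratios at these pseudocounts were -1.93 and -1.96 for Cdk19 over Cdk8, -3.40 and -3.41 for Pds5b over Pds5a, -2.94 and -2.95 for Esco1 over Esco2, and 1.10 and 1.11 for Mau2 over Nipbl. Those of undetected paralogs depended on the pseudocount most, with -7.79 and -8.94 for Ctcfl over Ctcf and -8.33 and -11.0 for Rad21l over Rad21. The planned comparison of level with protein length was not run, because protein sequences were not used here. No paired analysis was possible because the series has 1 group. With 2 replicates and unknown depth, small differences between neighbours in the order cannot be resolved.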
